A study of Mus musculus with 12 samples.

Results

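Solute carriers are membrane proteins that move nutrients, ions, metals and metabolites across the plasma membrane and across the membranes of mitochondria, lysosomes and the Golgi. They are named by family number, and each family has a main class of substrate. In macrophages they feed glycolysis and the citrate cycle, export lactate, move copper, zinc and iron between compartments and serve the lysosome, where engulfed material is broken down. Lipopolysaccharide (LPS), a bacterial cell wall component sensed by TLR4, is known to change the metabolism of these cells.

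The 92 genes described here, 3 of them not transporters, carry a solute carrier symbol (Slc) and were expressed in bone marrow-derived macrophages (BMDMs). They were chosen by level: a symbol made of Slc and a number, not a pseudogene, with a group mean of 2 or more TPM, a read density per transcript length relative to the total of the sample, in at least 1 of the 4 groups. Of 278 Slc symbols in the table, 100 reached this level, 35 were listed at 0 in all samples, and 8 of those over the level belong to a set of 9 glucose, iron, cystine, arginine and zinc transporters not described here. The table lists 258 of the 260 annotated protein-coding Slc genes of chromosomes 1 to 12 and only 15 of the 116 beyond, so transporters encoded beyond chromosome 12 are mostly not analysed here. At the edge of the level, Slc25a22 had a highest group mean of 2.0 TPM and Slc35d2 of 2.10 TPM, whereas Slc43a3 at 1.99 TPM and Slc17a9 at 1.97 TPM stayed outside. A level of 2 TPM was reached in all 4 groups by 59 members and in fewer groups by 33, and those 33 had to differ between groups to some degree. Of the 33, 16 reached the level in UT groups alone and so had to be lower with LPS in at least 1 genotype, among them Slc46a3, Slc25a13, Slc26a11, Slc16a7, Slc30a4, Slc1a5, Slc46a1, Slc2a8, Slc22a4 and Slc22a5. A further 7, among them Slc13a3, Slc2a6, Slc6a12 and Slc28a2b, reached it in LPS groups alone and so had to be higher in at least 1 genotype. The LPS changes of these genes are given below as descriptions. All 92 passed the filter on low values used for the tests.

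The 12 samples were BMDMs of WT mice and of mice without cGAS, the cytosolic DNA sensor, each left untreated (UT) or stimulated with LPS, with 3 samples per group. The cGAS-/- cells come from knockout mice in a background written as C57B/L6, and UT cells received medium alone. The labels give 100 ng/mL of LPS for 1 h, whereas the methods of the study give a higher dose and an exposure of a day, so the time after LPS is uncertain. The 3 samples of a group are called technical replicates in the study, so all p-values measure the spread between these samples and not the spread between mice. Cgas itself was at 1.19 to 3.25 TPM in the 6 WT samples and at 0.0703 to 0.291 TPM in the 6 cGAS-/- samples, with no overlap.

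One group of samples stood apart. The median SD of a member over the 3 samples, on the log2(TPM + 1) scale, was 0.66 in WT LPS cells, against 0.12 in WT UT, 0.10 in cGAS-/- UT and 0.09 in cGAS-/- LPS cells. Within the WT LPS group, replicate 2 held the highest value of 70 members and replicate 3 the lowest value of 70 members. In replicate 3 a single ferritin pseudogene, Fth-ps3, took 31.7% of the summed values, compared with 6.24% to 17.7% in the other 11 samples. The called WT LPS changes whose size is printed below are therefore given also without that replicate, for Slc16a1 and Slc29a3 by the adjusted p alone. Every one of them that is named kept an adjusted p under 0.05 there, except Slc16a1 and Slc29a3. Summed levels of 10 macrophage markers were 25660 to 37869 TPM in all samples, of which Lyz2 alone made up 15701 to 33426 TPM. Single markers moved with LPS in both directions. In cGAS-/- cells 4 of them (Lyz2, Fcgr1, Itgam and Msr1) were higher and 6 (Cd68, Mertk, Ctss, C1qa, C1qb and C1qc) lower in every LPS sample than in every UT sample, and in WT cells 2 were higher, 4 lower and 4 overlapped. Cd68 was at 1009 to 1046 TPM in cGAS-/- UT and 230 to 249 TPM in cGAS-/- LPS cells, and at 973 to 1042 TPM in WT UT and 153 to 506 TPM in WT LPS cells. B cell markers summed to 65.6 to 98.0 TPM in WT UT, 30.1 to 39.2 TPM in WT LPS, 4.32 to 11.1 TPM in cGAS-/- UT and 2.65 to 7.59 TPM in cGAS-/- LPS cells. Neutrophil markers ranged from 67.7 to 382 TPM and erythroid markers from 1.56 to 37.7 TPM, with the highest value of both in WT LPS replicate 1. Fewer cells of a type and less RNA per cell cannot be told apart in such bulk samples, and the part of these other cells and of the macrophage markers in the results below was not tested.

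By substrate, the members comprised 18 mitochondrial carriers, 13 carriers of nucleotide sugars and acetyl-CoA, 12 amino acid transporters, 12 metal transporters, 10 transporters of inorganic ions and acid-base equivalents and 6 of mono-, di- and tricarboxylates. Smaller groups were 4 for sugars and polyols, 4 for lipids and choline, 3 for nucleosides, 3 for vitamins and heme, 3 for organic cations and anions and 1 for peptides. The remaining 3 are not transporters but carry the name of one: Slc9a3r1, a scaffold protein, Slc7a6os and Slc4a1ap. The mean level of a member over the 12 samples ranged from 0.863 to 97.2 TPM with a median of 4.77 TPM, and 19 members exceeded 10 TPM. Values are per transcript length but were averaged over the transcripts listed for a symbol, so a level also depends on how many transcripts a gene has.

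**Figure D1:**
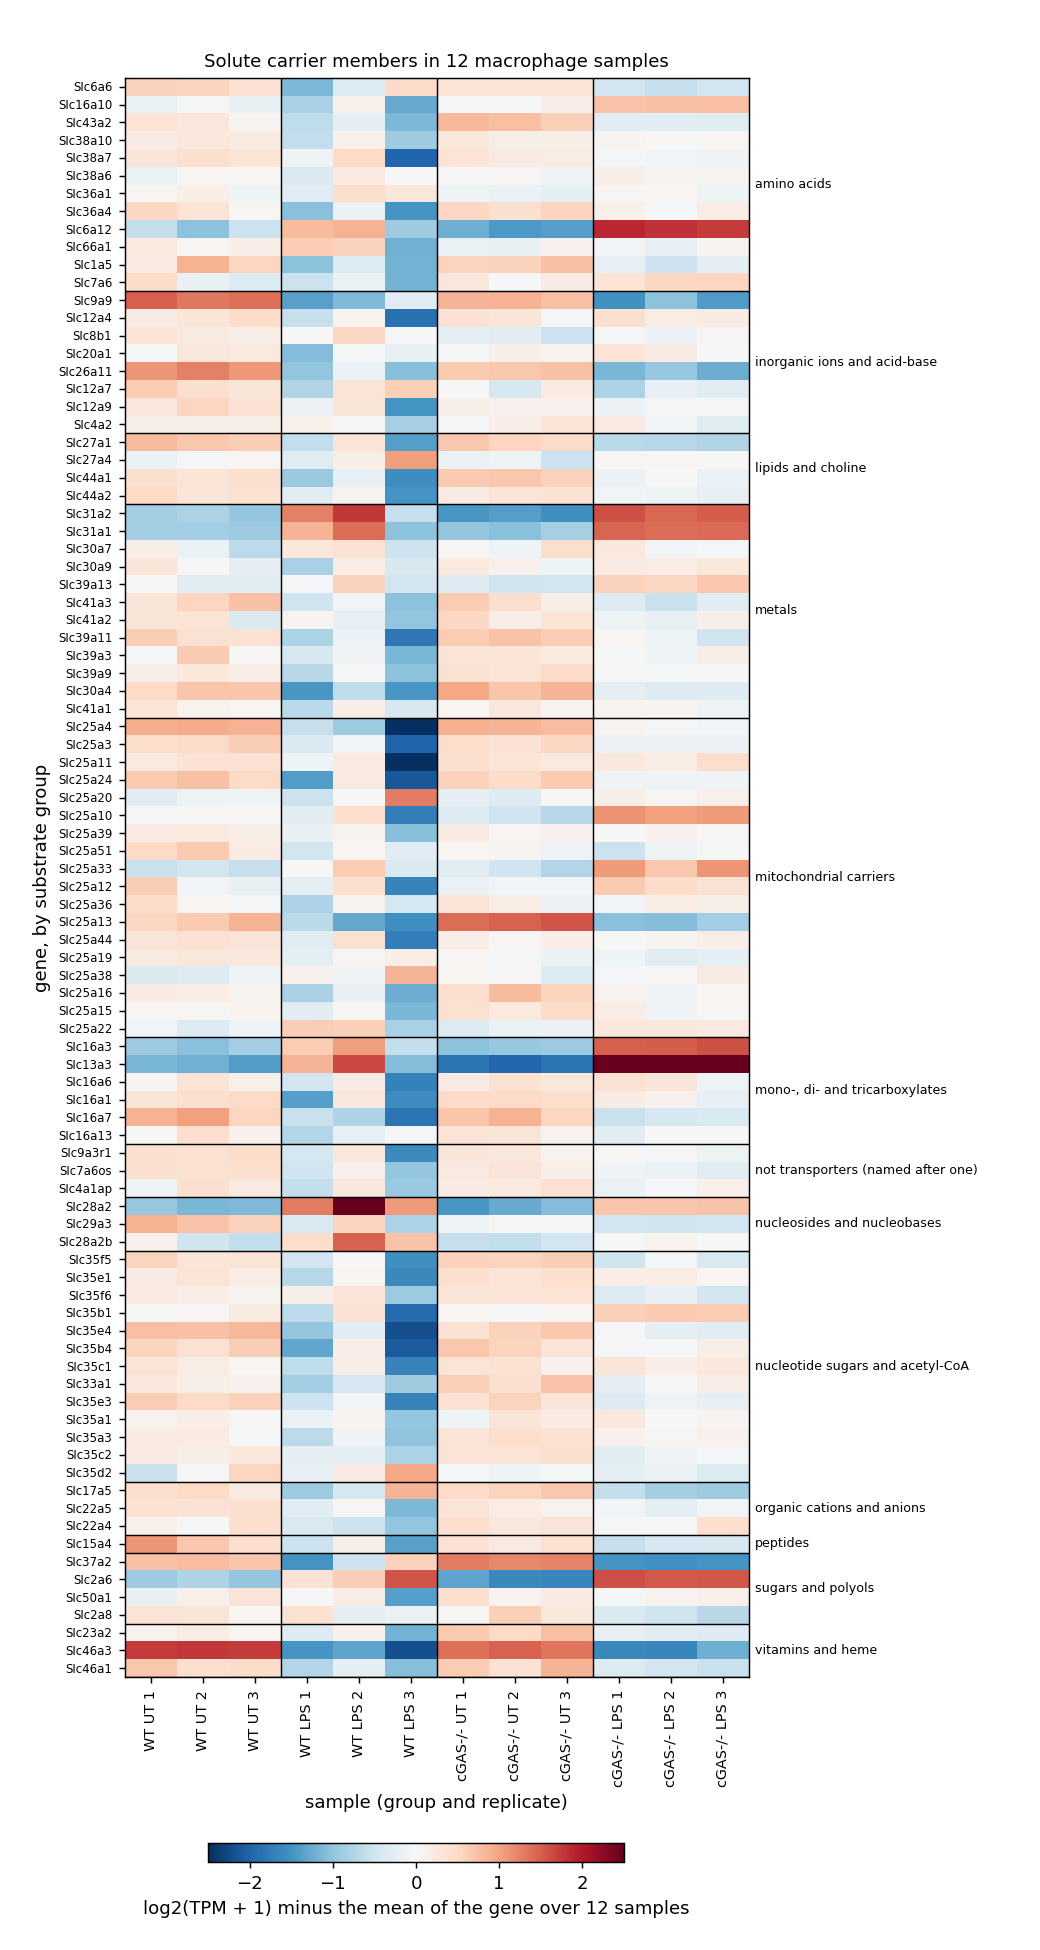
Heat map of 90 of the 92 members (rows, by substrate group) in the 12 samples (columns). Colour gives log2(TPM + 1) minus the mean of the gene over the 12 samples. The 3 UT samples of each genotype look alike, a small set of rows (Slc31a1, Slc31a2, Slc16a3, Slc13a3, Slc2a6, Slc6a12, Slc28a2) is red with LPS, and the column of WT LPS replicate 3 differs from its group, with the lowest WT LPS value in 70 members.

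On the deposited scale, most members had lower values with LPS than untreated in both genotypes, and fewer were higher. In cGAS-/- cells, 23 of 92 members had an adjusted p under 0.05 by limma, 10 higher and 13 lower, where 13.8% of all 11887 genes tested were called (4.76% higher and 9.06% lower). Those higher were Slc31a1, Slc31a2, Slc39a13, Slc16a3, Slc13a3, Slc2a6, Slc6a12, Slc28a2, Slc25a33 and Slc25a10. Beyond a log2 fold change of 2, 6 were higher and 4 lower (3.5% of all genes). In WT cells, 42 members passed, 6 higher and 36 lower, against a background of 27.6% of all genes (4.31% higher and 23.3% lower), and 1 was higher and 3 lower beyond a log2 fold change of 2 (4.32% of all genes). With TMM factors, which rescale the samples, the WT count was 31, split into 11 higher and 20 lower. That fit called 20.0% of all genes. Leaving out WT LPS replicate 3 gave 50 WT calls (11 up, 39 down; 34.7% of all genes), and leaving out replicate 2 gave 66 (6 up, 60 down; 48.7% of all genes). The cGAS-/- count was 41 (12 higher and 29 lower) without WT LPS replicate 3, which enters only through the shared estimate of the spread, where 30.8% of all genes were called. The same scaling shifted the all-gene median of the log2 change, from -0.46 to -0.09 in WT cells and from -0.20 to -0.02 in cGAS-/- cells. The median member moved from -0.70 to -0.26 in WT cells and from -0.26 to -0.02 in cGAS-/- cells, so small falls of single members depend on the scaling. Among the 59 members at 2 TPM or more in all 4 groups, which did not have to differ, 12 were called in cGAS-/- cells (7 higher and 5 lower, 20.3%) and 22 in WT cells (3 higher and 19 lower, 37.3%). Because the members were chosen by level, these counts are descriptions of the set.

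Some calls were more stable than others. Of the 23 calls in cGAS-/- cells, 13 held under all alternatives of the processing tried: Slc31a1, Slc31a2, Slc16a3, Slc13a3, Slc2a6, Slc6a12, Slc28a2, Slc25a33, Slc37a2, Slc46a3, Slc9a9, Slc26a11 and Slc25a13. The other 10 held under 9 to 19 alternatives of at most 20, and Slc16a7, Slc1a5, Slc25a10, Slc27a1, Slc17a5 and Slc39a13 were lost whichever cGAS-/- sample was left out. In WT cells 7 held under all 20, namely Slc28a2, Slc30a4, Slc16a7, Slc46a3, Slc9a9, Slc26a11 and Slc25a13, and the other 35 held under 4 to 19. Slc37a2 and Slc29a3 in WT cells held under 4 of 20, and Slc25a3 under 8. Among the genes that held under all alternatives, Slc13a3, Slc2a6 and Slc6a12 reached the level in LPS groups alone. Slc46a3, Slc26a11, Slc25a13, Slc30a4 and Slc16a7 reached it in UT groups alone. The rule thus set the direction of these genes in at least 1 genotype.

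Genes called in both genotypes numbered 16, all in the same direction, which is 38.1% of the WT calls and 69.6% of the cGAS-/- calls. Over all genes tested, 1216 were called in both genotypes, which is 37.0% of the WT calls and 74.0% of the cGAS-/- calls, and 1212 of them had the same direction. The sign of the change was shared by 79 of 92 members (85.9%), against 74.1% of all genes. The LPS comparisons of both genotypes use different samples but share 1 estimate of the spread. Members were chosen by level in these same samples, and 16 reached it in UT groups alone and 7 in LPS groups alone. The rule thus set the direction of those in at least 1 genotype, and their agreement is a description. Members whose 3 LPS samples lay fully outside the 3 UT samples numbered 69 of 92 in cGAS-/- cells and 55 of 92 in WT cells, where 55.7% and 38.2% of all genes tested did so.

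**Figure D2:**
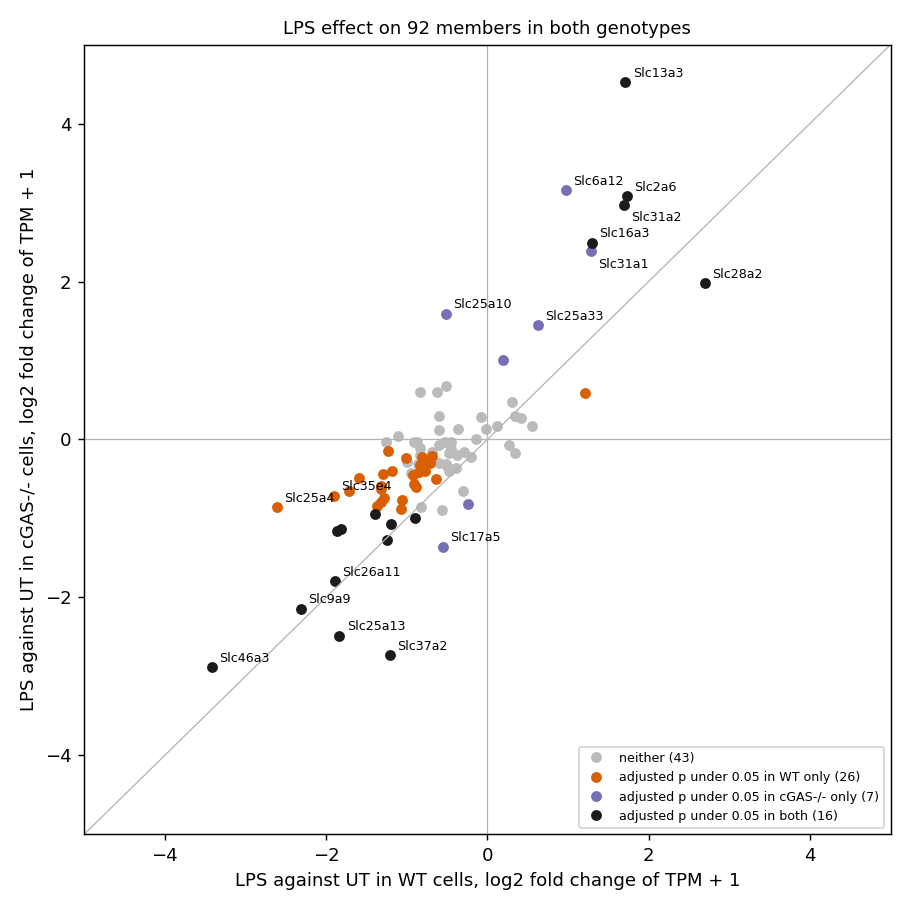
Log2 fold change of TPM + 1 with LPS in WT cells (horizontal axis) and in cGAS-/- cells (vertical axis) for the 92 members. Colour marks an adjusted p under 0.05 in both genotypes (16), WT alone (26), cGAS-/- alone (7) or neither (43), and the diagonal marks equal change. Slc13a3 at 1.71 and 4.52 and Slc6a12 at 0.98 and 3.16 lie far above the diagonal, and Slc37a2 at -1.21 and -2.73 lies below it.

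Both copper transporters rose with LPS in cGAS-/- cells, and Slc31a2 in WT cells too. Slc31a1 encodes CTR1, the high-affinity copper importer, and Slc31a2 encodes the related CTR2 of endosomes and lysosomes. Both lie on mouse chromosome 4 on the plus strand, Slc31a2 at chr4:62180799-62220050 and Slc31a1 at chr4:62278085-62320861 (GRCm39), with 58034 bases between them. Slc31a1 was at 15.6, 14.8 and 17.4 TPM in cGAS-/- UT cells and at 89.4, 85.7 and 86.7 TPM in cGAS-/- LPS cells. In WT cells it was at 17.0, 16.9 and 16.5 TPM untreated and at 58.3, 84.8 and 15.2 TPM with LPS. The LPS samples were thus all higher in cGAS-/- cells, whereas WT LPS replicate 3 lay below the WT UT samples. The log2 fold change was 2.38 (SE 0.48, adjusted p = 0.00628, limma) in cGAS-/- cells and 1.29 (SE 0.48, adjusted p = 0.0658) in WT cells, and 2.0 (adjusted p = 6.83e-06, limma) in WT cells without replicate 3.

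Slc31a2 moved alongside it, from 11.7, 12.5 and 11.1 TPM to 106, 93.8 and 98.2 TPM in cGAS-/- cells. In WT cells it went from 18.1, 19.2 and 16.9 TPM to 82.8, 118 and 22.4 TPM. All LPS samples exceeded all UT samples of their genotype. The log2 fold change was 2.97 (SE 0.47, adjusted p = 0.0014, limma) in cGAS-/- cells and 1.69 (SE 0.47, adjusted p = 0.0227) in WT cells, where it was 2.39 without replicate 3. The promoters of both genes, 300 bases around the start site in RefSeq (GRCm38.p6), are shown because these neighbours rose together in cGAS-/- cells. Capitals mark a CACGTG, the E-box read by bHLH-ZIP factors. It is present in Slc31a2 (chr4:62286179-62286478, plus strand) and not in Slc31a1 (chr4:62360451-62360750, plus strand).
Slc31a1: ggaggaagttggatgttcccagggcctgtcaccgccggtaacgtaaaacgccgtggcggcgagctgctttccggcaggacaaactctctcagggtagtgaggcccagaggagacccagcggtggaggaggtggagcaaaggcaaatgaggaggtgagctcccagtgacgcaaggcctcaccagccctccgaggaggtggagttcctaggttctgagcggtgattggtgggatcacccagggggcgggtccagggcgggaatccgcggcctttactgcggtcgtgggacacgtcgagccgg
Slc31a2: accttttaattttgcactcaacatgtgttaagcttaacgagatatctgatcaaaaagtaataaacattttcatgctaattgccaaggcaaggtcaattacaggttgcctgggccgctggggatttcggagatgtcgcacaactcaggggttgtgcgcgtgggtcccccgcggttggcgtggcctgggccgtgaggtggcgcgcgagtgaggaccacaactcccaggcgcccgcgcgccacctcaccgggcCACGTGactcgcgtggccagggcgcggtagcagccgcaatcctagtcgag
The 3 motifs searched were the NF-kappaB consensus, TGANTCA (the AP-1 type site) and CACGTG, on both strands. They are found in 4.51%, 7.81% and 7.15% of all 32851 promoter windows and in 5.0%, 7.0% and 19.0% of the 100 windows of the 79 members with an entry. The windows of all genes include genes not expressed here, and overlapping windows of a gene, as in Slc12a7, can count the same site again. These shares are therefore no comparison. A match of letters does not show that a factor binds there.

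Of the other 10 metal transporters, 1 rose and 1 fell in cGAS-/- cells and 4 fell in WT cells, where 13.8% and 27.6% of all genes were called. Of all 12, 3 rose and 1 fell in cGAS-/- cells, and 3 rose and 3 fell without WT LPS replicate 3 (30.8% of all genes called). Slc39a13, a zinc transporter of the ZIP family, rose in cGAS-/- cells from 3.96, 3.41 and 3.50 TPM to 8.24, 7.83 and 8.86 TPM, a log2 fold change of 1.01 (SE 0.26, adjusted p = 0.0226, limma). The change in WT cells was 0.19 (adjusted p = 0.587). Slc30a4, a zinc exporter that fills vesicles, was at 2.87, 3.43 and 3.45 TPM in WT UT cells and at 0, 0.771 and 0 TPM with LPS. In cGAS-/- cells it went from 4.39, 3.43 and 3.97 TPM to 1.35, 1.19 and 1.19 TPM. It fell by 1.13 on the log2 scale in cGAS-/- cells (SE 0.23, adjusted p = 0.00594, limma), and the fitted WT change was -1.81 (adjusted p = 0.000245; -1.67 without replicate 3), where 2 LPS samples are listed at 0. Slc41a3, of a magnesium transporter family, and the ZIP members Slc39a11 and Slc39a9 fell in WT cells (adjusted p = 0.0131, 0.0145 and 0.0324, limma), by 0.81, 0.92 and 0.54 without replicate 3, and of these Slc39a11 alone passed with TMM factors. Slc30a7, a zinc carrier of the Golgi, was at 5.84 to 9.0 TPM in cGAS-/- UT cells and at 6.02 to 7.82 TPM with LPS (adjusted p = 0.93, limma). Its transcripts overlap those of the antisense neighbour Dph5 over 25.7% of their sequence.

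**Figure D3:**
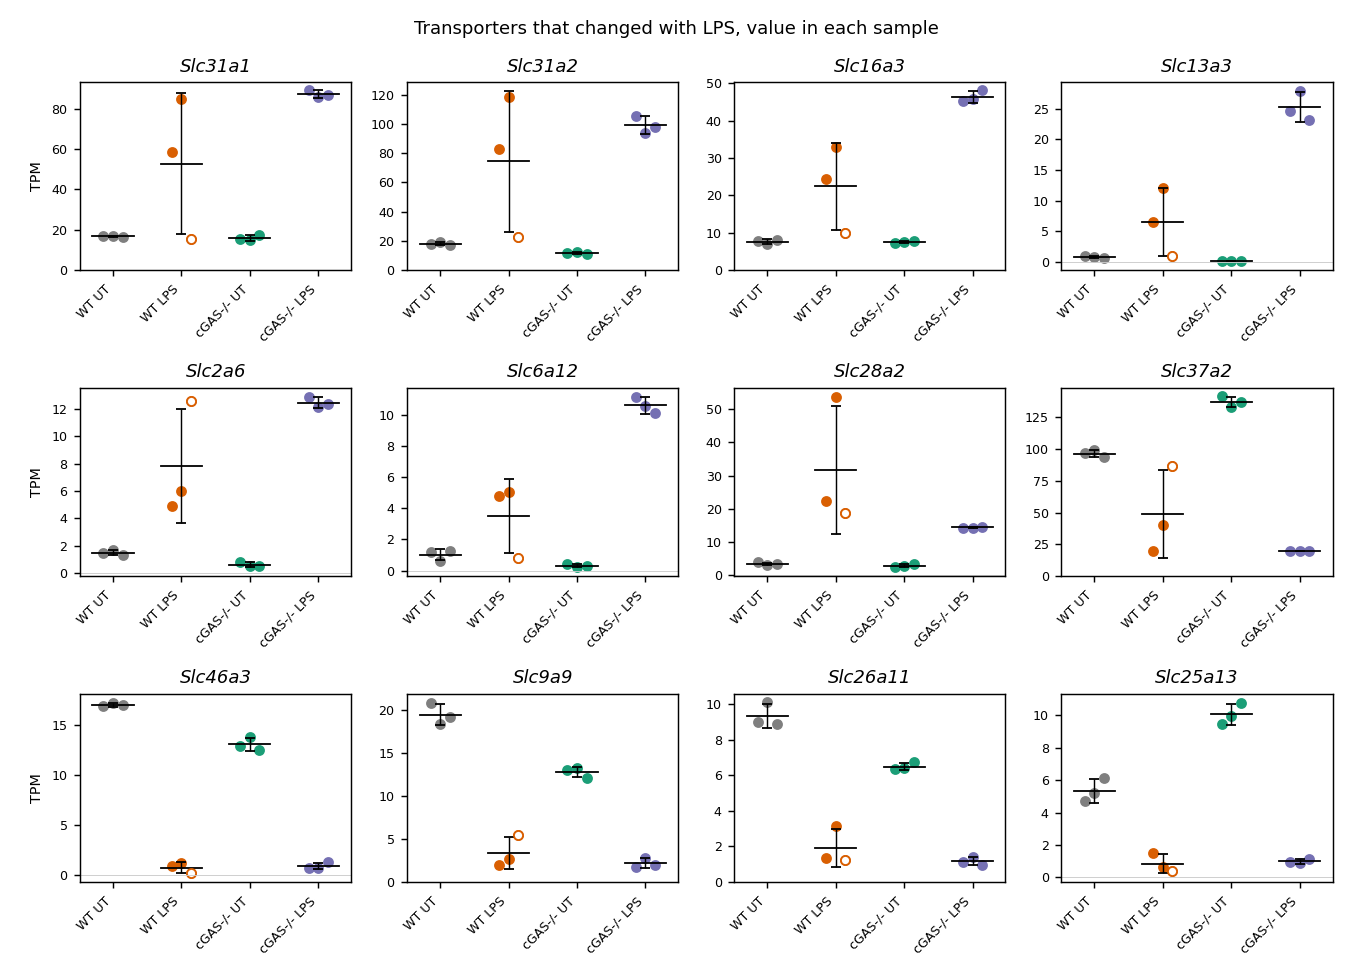
TPM of 12 members in each sample, with points for single samples, horizontal lines for the mean of 3 samples and bars for the SD. The open point is WT LPS replicate 3. The cGAS-/- LPS points of Slc31a1, Slc31a2, Slc16a3, Slc13a3, Slc2a6, Slc6a12 and Slc28a2 lie above all UT points, and those of Slc37a2, Slc46a3, Slc9a9, Slc26a11 and Slc25a13 lie below them.

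Of the 6 carboxylate transporters, 2 rose and 1 fell in cGAS-/- cells (13.8% of all genes called) and 2 rose and 2 fell in WT cells (27.6% of all genes called). Slc16a3 encodes MCT4, through which glycolytic cells release lactate. It was at 7.70, 6.96 and 8.15 TPM in WT UT and 24.5, 32.9 and 9.89 TPM in WT LPS cells, and at 7.10, 7.44 and 7.69 TPM in cGAS-/- UT and 45.1, 45.7 and 48.2 TPM in cGAS-/- LPS cells. LPS samples lay above UT samples in both genotypes. The log2 fold change was 2.49 in cGAS-/- cells (SE 0.35, adjusted p = 0.000625, limma) and 1.30 in WT cells (SE 0.35, adjusted p = 0.0195, limma; 1.78 without replicate 3).

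Slc13a3 encodes NaDC3, a sodium-coupled transporter of succinate and other dicarboxylates. Its values were 0.168, 0.0711 and 0.177 TPM in cGAS-/- UT cells and 24.6, 27.9 and 23.2 TPM with LPS, a log2 fold change of 4.52 (SE 0.52, adjusted p = 0.000145, limma). WT UT cells were at 0.887, 0.814 and 0.593 TPM and WT LPS cells at 6.51, 12.1 and 0.955 TPM. The WT change was 1.71 (SE 0.52, adjusted p = 0.0319, limma), and 2.49 (adjusted p = 1.73e-05) without replicate 3, which lay just above the UT samples. The WT call was lost under 7 of 20 alternatives, without WT LPS replicate 1 or 2 among them (fold change down to 0.87 and adjusted p up to 0.171 over all 20, limma). As a gene near 0 without LPS, Slc13a3 is a member through its LPS values.

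Slc16a7, which encodes the monocarboxylate importer MCT2, was lower with LPS in both genotypes. It went from 5.48, 6.22 and 4.19 TPM to 1.42, 1.08 and 0.00761 TPM in WT cells and from 4.76, 5.5 and 4.18 TPM to 1.42, 1.65 and 1.73 TPM in cGAS-/- cells. The groups did not overlap, and it fell by 1.86 (SE 0.30, adjusted p = 0.00116) and by 1.16 (SE 0.30, adjusted p = 0.0239, limma) on the log2 scale, the WT change being -1.48 without replicate 3. The cGAS-/- call was lost under 9 of 20 alternatives, with TMM factors and without any single cGAS-/- sample among them (adjusted p up to 0.292, limma). Slc16a1, which encodes MCT1, was at 0.915, 5.06 and 0.667 TPM in WT LPS cells after 5.17 to 5.96 TPM untreated (log2 fold change -1.29, adjusted p = 0.0334, limma). Without replicate 3 the call was lost (adjusted p = 0.0754), and in cGAS-/- cells the change was -0.44 (adjusted p = 0.575). Slc16a6 did not pass in either genotype (adjusted p = 0.124 and 0.919, limma).

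Of the 4 sugar and polyol transporters, 1 rose and 2 fell in cGAS-/- cells (13.8% of all genes called) and 1 rose and 1 fell in WT cells (27.6%). Slc2a6 encodes GLUT6, a glucose transporter found on lysosomes, and it rose in both genotypes. It was at 1.42, 1.68 and 1.33 TPM in WT UT and 4.88, 5.99 and 12.6 TPM in WT LPS cells, and at 0.824, 0.489 and 0.482 TPM in cGAS-/- UT and 12.9, 12.2 and 12.4 TPM in cGAS-/- LPS cells. Here WT LPS replicate 3 was the highest of its group. The log2 fold change was 3.08 in cGAS-/- cells (SE 0.28, adjusted p = 2.85e-05, limma) and 1.74 in WT cells (SE 0.28, adjusted p = 0.00121; 1.37 without replicate 3). With UT means under 2 TPM, it too is a member through its LPS values.

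Slc37a2, a sugar phosphate exchanger of the endoplasmic reticulum known from macrophages, went the other way. It was at 142, 133 and 137 TPM in cGAS-/- UT cells and at 20.0, 19.7 and 19.8 TPM with LPS, a fall by 2.73 on the log2 scale (SE 0.41, adjusted p = 0.000953, limma). WT UT cells were at 96.7, 98.9 and 93.7 TPM and WT LPS cells at 19.9, 40.0 and 87.1 TPM. All WT LPS samples lay below the UT samples, replicate 3 only just. The WT change was -1.21 (adjusted p = 0.0479, limma), -1.73 (adjusted p = 0.000258) without replicate 3, and -0.51 (adjusted p = 0.545) with TMM factors. Slc2a8, which encodes the intracellular GLUT8, fell in cGAS-/- cells by 0.82 (SE 0.22, adjusted p = 0.0312, limma) and was at -0.25 in WT cells. That call held under 11 of the 19 alternatives that test Slc2a8 and was lost with TMM factors.

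Of the 12 amino acid transporters, 1 rose and 2 fell in cGAS-/- cells and 3 fell in WT cells, 3 of 12 in each, where 13.8% and 27.6% of all genes were called. These counts became 2 higher and 3 lower in cGAS-/- cells and 2 higher and 4 lower in WT cells when WT LPS replicate 3 was left out, where 30.8% and 34.7% of all genes were called. Slc6a12 encodes BGT1, a carrier of the osmolyte betaine and of GABA. It was at 0.415, 0.225 and 0.270 TPM in cGAS-/- UT cells and at 11.2, 10.5 and 10.1 TPM with LPS (log2 fold change 3.16, SE 0.39, adjusted p = 0.00024, limma). In WT cells it was at 1.20, 0.626 and 1.27 TPM untreated and at 4.76, 5.03 and 0.791 TPM with LPS. Replicate 3 fell within the UT range there. The WT change was 0.98 (SE 0.39, adjusted p = 0.0797, limma) and 1.55 (adjusted p = 6.58e-05) without that replicate. Slc6a12 is likewise a member through its LPS values.

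The first RefSeq promoter window of Slc6a12 (chr6:121342324-121342623, plus strand, GRCm38.p6) is shown with that of Slc37a2 (chr9:37255689-37255988, minus strand), as the pair moved in opposite directions in cGAS-/- cells. The other 4 windows of Slc6a12 hold none of the 3 motifs. Capitals mark an NF-kappaB consensus (first) and a TGANTCA (second) in Slc6a12, and a TGANTCA in Slc37a2.
Slc6a12: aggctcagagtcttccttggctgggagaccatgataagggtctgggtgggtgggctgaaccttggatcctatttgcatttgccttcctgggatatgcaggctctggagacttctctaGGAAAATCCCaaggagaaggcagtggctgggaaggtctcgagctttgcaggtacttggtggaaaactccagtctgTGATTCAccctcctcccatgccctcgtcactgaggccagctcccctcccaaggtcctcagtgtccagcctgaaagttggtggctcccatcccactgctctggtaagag
Slc37a2: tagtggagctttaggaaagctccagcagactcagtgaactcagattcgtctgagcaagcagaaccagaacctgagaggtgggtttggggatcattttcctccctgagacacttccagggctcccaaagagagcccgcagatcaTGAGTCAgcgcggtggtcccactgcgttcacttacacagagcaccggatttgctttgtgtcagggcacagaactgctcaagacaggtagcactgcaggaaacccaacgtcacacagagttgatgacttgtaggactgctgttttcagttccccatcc
Among members called with LPS in cGAS-/- cells, 14.3% of the 14 windows of those higher and 7.69% of the 13 windows of those lower hold the NF-kappaB consensus. For TGANTCA the shares are 7.14% and 23.1%. With so few windows these are counts of letters and no comparison.

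Slc43a2 encodes LAT4, a carrier of branched-chain and aromatic amino acids. It fell from 20.1, 19.4 and 17.4 TPM to 9.04, 9.02 and 8.88 TPM in cGAS-/- cells (log2 fold change -1.0, adjusted p = 0.0173, limma). In WT cells it fell from 14.3, 13.7 and 11.8 TPM to 6.78, 9.24 and 4.58 TPM (-0.90, adjusted p = 0.0187, limma; -0.67 without replicate 3), although with TMM factors the WT value was -0.28 (adjusted p = 0.189). Slc1a5, which encodes the glutamine transporter ASCT2, fell by 0.95 in cGAS-/- and by 1.39 in WT cells (adjusted p = 0.0246 and 0.00212, limma) from levels of 1.97 to 3.61 TPM, and without replicate 3 the WT change was -1.23.

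Slc36a4, of the proton-coupled amino acid transporters, fell in WT cells (-1.18, adjusted p = 0.015, limma; -0.89 without replicate 3). The taurine transporter gene Slc6a6 was at 31.9, 32.1 and 32.0 TPM in cGAS-/- UT and 17.8, 16.6 and 17.6 TPM in cGAS-/- LPS cells. These did not overlap, but the change of -0.85 did not pass with all 12 samples (adjusted p = 0.139, limma) and did without WT LPS replicate 3 (adjusted p = 0.00413). The lysosomal Slc36a1 was at 3.65 to 4.07 TPM untreated and 4.06 to 4.68 TPM with LPS in cGAS-/- cells (adjusted p = 0.72). Slc7a6, which exchanges cationic for neutral amino acids, had adjusted p of 0.596 and 0.125 in cGAS-/- and WT cells.

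All 3 nucleoside transporters passed in WT cells (27.6% of all genes called) and 1 in cGAS-/- cells (13.8%). Slc28a2 encodes CNT2, a sodium-coupled importer of purine nucleosides. It rose from 3.94, 3.28 and 3.38 TPM to 22.4, 53.7 and 18.7 TPM in WT cells and from 2.44, 2.94 and 3.44 TPM to 14.4, 14.4 and 14.5 TPM in cGAS-/- cells. The LPS samples of both genotypes lay above every UT sample. The log2 fold change was 2.70 in WT cells (SE 0.33, adjusted p = 0.000216; 2.98 without replicate 3) and 1.98 in cGAS-/- cells (SE 0.33, adjusted p = 0.002, limma). Its near copy Slc28a2b rose in WT cells from 0.820, 0.191 and 0.0982 TPM to 1.29, 3.65 and 1.76 TPM (1.21, adjusted p = 0.007, limma; 1.29 without replicate 3), and it is a member through its WT LPS values. The transcripts of Slc28a2 share 87.5% of their sequence with Slc28a2b at 96.1% identity, so how reads were divided between both is uncertain. Slc29a3, which encodes the lysosomal nucleoside exporter ENT3, fell in WT cells from 13.8, 12.2 and 11.1 TPM to 5.22, 10.8 and 3.68 TPM (-0.93, adjusted p = 0.0394, limma; 0.0531 without replicate 3 and 0.201 with TMM factors).

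Of the 10 ion transporters, 2 fell in cGAS-/- and 3 in WT cells, and of the 3 vitamin and heme transporters 2 fell in each, against 13.8% and 27.6% of all genes. Slc46a3, a lysosomal transporter and a member through its UT values, was at 16.9, 17.2 and 17.0 TPM in WT UT and 0.915, 1.15 and 0.164 TPM in WT LPS cells. Slc46a3 in cGAS-/- cells was at 12.9, 13.8 and 12.5 TPM untreated and 0.743, 0.734 and 1.29 TPM with LPS. It fell by 3.42 (SE 0.24, adjusted p = 5.62e-06; 3.15 without replicate 3) and by 2.88 (SE 0.24, adjusted p = 1.64e-05, limma) on the log2 scale. Its transcripts overlap Pomp on the other strand over 44.8% of their sequence. The folate transporter gene Slc46a1 fell by 1.19 in WT (0.99 without replicate 3) and by 1.07 in cGAS-/- cells (adjusted p = 0.00386 and 0.00955, limma), and 35.3% of its sequence is antisense to Sarm1. The library kit keeps strand, but whether the counting used it is not given in the sources used here.

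Slc9a9 encodes NHE9, a sodium-proton exchanger of endosomes. It fell from 20.9, 18.4 and 19.1 TPM to 2.01, 2.62 and 5.43 TPM in WT cells and from 13, 13.2 and 12.1 TPM to 1.72, 2.81 and 1.92 TPM in cGAS-/- cells. The changes were -2.31 (SE 0.28, adjusted p = 0.000187; -2.63 without replicate 3) and -2.15 (SE 0.28, adjusted p = 0.000331, limma). Slc26a11, an anion transporter, fell from 9.01, 10.1 and 8.89 TPM to 1.36, 3.12 and 1.23 TPM in WT cells and from 6.36, 6.40 and 6.73 TPM to 1.11, 1.41 and 0.971 TPM in cGAS-/- cells (-1.89 and -1.80, adjusted p = 0.000253 and 0.000397, limma; -1.73 in WT cells without replicate 3). For both genes no LPS sample reached any UT sample of its genotype.

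Slc12a4, a potassium-chloride cotransporter, did not pass in WT cells (-1.11, adjusted p = 0.0579) or cGAS-/- cells (0.05, adjusted p = 0.967, limma). It was at 7.04 to 8.60 TPM in WT UT and at 3.65, 6.45 and 0.908 TPM in WT LPS cells, replicate 3 being the lowest. The phosphate importer gene Slc20a1 did not pass in either genotype (adjusted p = 0.114 in WT and 0.854 in cGAS-/- cells, limma). Slc15a4, a lysosomal histidine and peptide transporter needed for signalling by endosomal TLRs, fell in WT cells from 8.07, 5.78 and 4.71 TPM to 1.92, 3.68 and 0.653 TPM (-1.32, adjusted p = 0.0135, limma; -0.93 without replicate 3). Its cGAS-/- values were 4.49, 3.94 and 4.52 TPM untreated and 1.83, 2.15 and 2.21 TPM with LPS (-0.79, adjusted p = 0.151, and 0.0149 without WT LPS replicate 3, limma).

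Of the 18 mitochondrial carriers, 2 rose and 1 fell in cGAS-/- cells (16.7%) and 6 fell in WT cells (33.3%), shares near those of all genes (13.8% and 27.6%). When WT LPS replicate 3 was left out there were 3 higher and 4 lower in cGAS-/- and 2 higher and 7 lower in WT cells (30.8% and 34.7% of all genes called), and with weights per sample 5 higher and 6 lower in cGAS-/- cells, where that fit called 48.3% of all genes. Slc25a13 encodes citrin, the aspartate-glutamate carrier of the malate-aspartate shuttle, and it is a member through its UT values. It fell from 9.49, 9.96 and 10.8 TPM to 0.921, 0.857 and 1.16 TPM in cGAS-/- cells and from 4.69, 5.21 and 6.16 TPM to 1.49, 0.632 and 0.371 TPM in WT cells. The changes were -2.49 (SE 0.23, adjusted p = 3.15e-05) and -1.83 (SE 0.23, adjusted p = 0.000236, limma; -1.65 without replicate 3), with no overlap. Its close relative Slc25a12, aralar, was at 3.65 to 3.95 TPM in cGAS-/- UT and 5.77 to 7.14 TPM in cGAS-/- LPS cells, which was not called. Slc25a33, a pyrimidine nucleotide carrier, rose in cGAS-/- cells from 4.29, 3.60 and 2.92 TPM to 12.6, 9.35 and 12.8 TPM (1.45, SE 0.26, adjusted p = 0.00335, limma) and was at 0.63 in WT cells (adjusted p = 0.0941, with 0.86 and 0.0116 without replicate 3).

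Slc25a10, the dicarboxylate carrier that exchanges malate and succinate for phosphate, was at 6.26, 5.48 and 4.60 TPM in cGAS-/- UT and 19.1, 17.6 and 18.3 TPM in cGAS-/- LPS cells (1.59, SE 0.42, adjusted p = 0.0286, limma). The call held under 12 of 20 alternatives and was lost without any single cGAS-/- sample (adjusted p up to 0.103, limma). In WT cells it was at 7.89, 8.10 and 8.17 TPM untreated and 6.56, 11.3 and 1.76 TPM with LPS, where the groups overlapped (-0.51, adjusted p = 0.376).

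The abundant carriers Slc25a4 and Slc25a3, which serve oxidative phosphorylation, were called in WT cells and not in cGAS-/- cells with all 12 samples. Slc25a4, the ADP/ATP exchanger ANT1, went from 61.0, 62.4 and 59.3 TPM to 21.3, 17.0 and 1.58 TPM in WT cells (-2.61, SE 0.62, adjusted p = 0.0115, limma). Without replicate 3 the WT change was -1.63 (adjusted p = 4.28e-06). In cGAS-/- cells it went from 60.7, 59.0 and 55.5 TPM to 33.7, 31.2 and 30.5 TPM, without overlap, at -0.86 (adjusted p = 0.462; 0.000127 without WT LPS replicate 3). The phosphate carrier gene Slc25a3 was at 46.4 to 52.2 TPM in WT UT and 26.0, 32.4 and 7.70 TPM in WT LPS cells (-1.32, adjusted p = 0.0349, limma; -0.73 without replicate 3; adjusted p = 0.0738 with TMM factors). Slc25a3 in cGAS-/- cells was at 43.9 to 48.7 TPM and 30.3 to 30.5 TPM (-0.59, adjusted p = 0.437, and 0.00164 without WT LPS replicate 3). Slc25a24, the ATP-magnesium carrier, fell in WT cells (-1.72, adjusted p = 0.0188, limma; -1.20 without replicate 3). The 2-oxoglutarate carrier gene Slc25a11 and the acylcarnitine carrier gene Slc25a20 did not pass in either genotype (adjusted p from 0.149 to 0.992, limma).

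Of the 13 carriers of nucleotide sugars and acetyl-CoA, 8 fell in WT cells (27.6% of all genes called) and none was called by limma in cGAS-/- cells (13.8%), where 4 had an unadjusted p under 0.05. The counts without WT LPS replicate 3 were 8 and 6, all lower (34.7% and 30.8% of all genes called), and weights per sample gave 4 in WT (all lower) and 10 in cGAS-/- cells (1 up, 9 down; 19.4% and 48.3% of all genes), so the count of 0 depends on the fit. Carriers of nucleotide sugars bring activated sugars into the Golgi and endoplasmic reticulum for glycosylation. Most members were put in this group by family number, so a single member may carry something else. The falls in WT cells were -1.90 in Slc35e4 (adjusted p = 0.00474, limma), -1.59 in Slc35b4 and -0.64 to -1.32 in the other 6. Without replicate 3 they were -1.38 in Slc35e4, -1.09 in Slc35b4 and -0.45 to -0.86 in the other 6. With TMM factors, Slc35e4, Slc35b4 and Slc35e3 kept an adjusted p under 0.05 and the other 5 did not. Slc35e4 was at 9.79, 9.67 and 10.4 TPM untreated and at 2.30, 4.38 and 0.407 TPM with LPS in WT cells. The cGAS-/- samples were at 7.31, 8.64 and 9.29 TPM and 5.30, 4.54 and 4.37 TPM, lower in every LPS sample and not called with all 12 samples (adjusted p = 0.289, and 0.0114 without WT LPS replicate 3, limma). Slc35f5 was at 18.5, 18.2 and 19.0 TPM and 8.19, 11.8 and 9.10 TPM in cGAS-/- cells (-0.88, adjusted p = 0.12, and 0.00216 without WT LPS replicate 3). Whether any of these changes differed between the genotypes is given by the interaction test, which called none of them with all 12 samples.

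Of the 4 lipid and choline transporters, 1 fell in cGAS-/- and 2 in WT cells (13.8% and 27.6% of all genes called). Without WT LPS replicate 3, 3 fell in each genotype (30.8% and 34.7% of all genes called). Slc27a1, which encodes FATP1, fell from 23.7, 21.4 and 20.5 TPM to 8.70, 8.37 and 8.17 TPM in cGAS-/- cells and from 25.7, 23.8 and 22.8 TPM to 9.14, 18.6 and 4.98 TPM in WT cells (-1.28 and -1.24, adjusted p = 0.0337 and 0.0244, limma; -0.83 in WT cells without replicate 3). The cGAS-/- call held under 10 of 20 alternatives and was lost without any single cGAS-/- sample. Its relative Slc27a4 was at 6.72 to 9.30 TPM in cGAS-/- UT and 10.1 to 10.6 TPM in cGAS-/- LPS cells and was not called. The choline transporter gene Slc44a1 fell in WT cells (-1.28, adjusted p = 0.00787; -0.95 without replicate 3) and was at -0.75 in cGAS-/- cells (adjusted p = 0.119, and 0.00673 without WT LPS replicate 3, limma).

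Among the carriers of organic ions, Slc17a5, which encodes the sialic acid exporter of lysosomes, fell in cGAS-/- cells from 15.2, 16.2 and 17.5 TPM to 6.66, 5.45 and 5.20 TPM (-1.36, adjusted p = 0.0313, limma; -1.09 and 0.253 with TMM factors). In WT LPS cells it was at 5.20, 7.53 and 19.8 TPM, replicate 3 above all UT samples (-0.55, adjusted p = 0.275, with -1.05 and 0.000921 without replicate 3, limma). Its transcripts share repeat sequence with many other genes, so its values are uncertain. Slc22a4 and Slc22a5, carriers of ergothioneine and carnitine, fell in WT cells by 0.81 and 0.84 (adjusted p = 0.0158 and 0.0324, limma; 0.64 and 0.51 without replicate 3), and neither passed with TMM factors (0.0898 and 0.107).

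The comparison of genotypes sets cGAS-/- cells against WT cells. WT mice were bought from a supplier and cGAS-/- mice came from another laboratory, so genotype and source of the mice cannot be told apart. In UT cells no member was called by limma with all 12 samples, against 1.83% of all genes, and 4 had an unadjusted p under 0.05. No member lay beyond a log2 fold change of 2 with an adjusted p under 0.05, against 0.37% of all genes. The samples of both genotypes did not overlap in 35 of 92 members, against 30.5% of all genes. With only the 6 UT samples, whose spread is small, 13 members had an adjusted p under 0.05, where 10.4% of all genes did. Of these, Slc25a13, Slc37a2, Slc23a2 and Slc43a2 were higher in cGAS-/- cells and 9 were lower. Slc25a13 was at 9.49, 9.96 and 10.8 TPM in cGAS-/- and 4.69, 5.21 and 6.16 TPM in WT cells (0.81, SE 0.11, adjusted p = 0.00885, limma on 6 samples). Slc29a3 was at 6.44, 7.03 and 7.24 TPM in cGAS-/- and 13.8, 12.2 and 11.1 TPM in WT cells (-0.75, SE 0.09, adjusted p = 0.00737). Slc31a2, Slc2a6 and Slc9a9 were lower by 0.58, 0.64 and 0.57 (adjusted p = 0.00822, 0.0328 and 0.00659, limma on 6 samples). The ascorbate transporter gene Slc23a2 was at 12.3, 10.9 and 13.2 TPM in cGAS-/- and 7.94, 8.59 and 7.72 TPM in WT cells (0.53, adjusted p = 0.0182). The mitochondrial sodium-calcium exchanger gene Slc8b1 was at 5.28, 5.09 and 4.01 TPM and 8.19, 7.57 and 7.02 TPM (-0.57, adjusted p = 0.0329, limma on 6 samples).

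With LPS, 1 member was called between genotypes, against 2.36% of all genes, and 33 had an unadjusted p under 0.05. None was called beyond a log2 fold change of 2, where 0.614% of all genes were. This was Slc16a10, which encodes TAT1, a carrier of aromatic amino acids. It was at 27.1, 27.4 and 28.0 TPM in cGAS-/- LPS cells and 8.71, 17.7 and 6.12 TPM in WT LPS cells, without overlap (log2 fold change 1.39, SE 0.31, adjusted p = 0.0444, limma). Without WT LPS replicate 3 the difference was 1.08 (adjusted p = 0.0164). The call was lost without replicate 1 of that group and under 13 other alternatives of 20. UT cells were at 16.0, 16.1 and 18.3 TPM in cGAS-/- and 14.3, 15.5 and 14 TPM in WT.

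**Figure D4:**
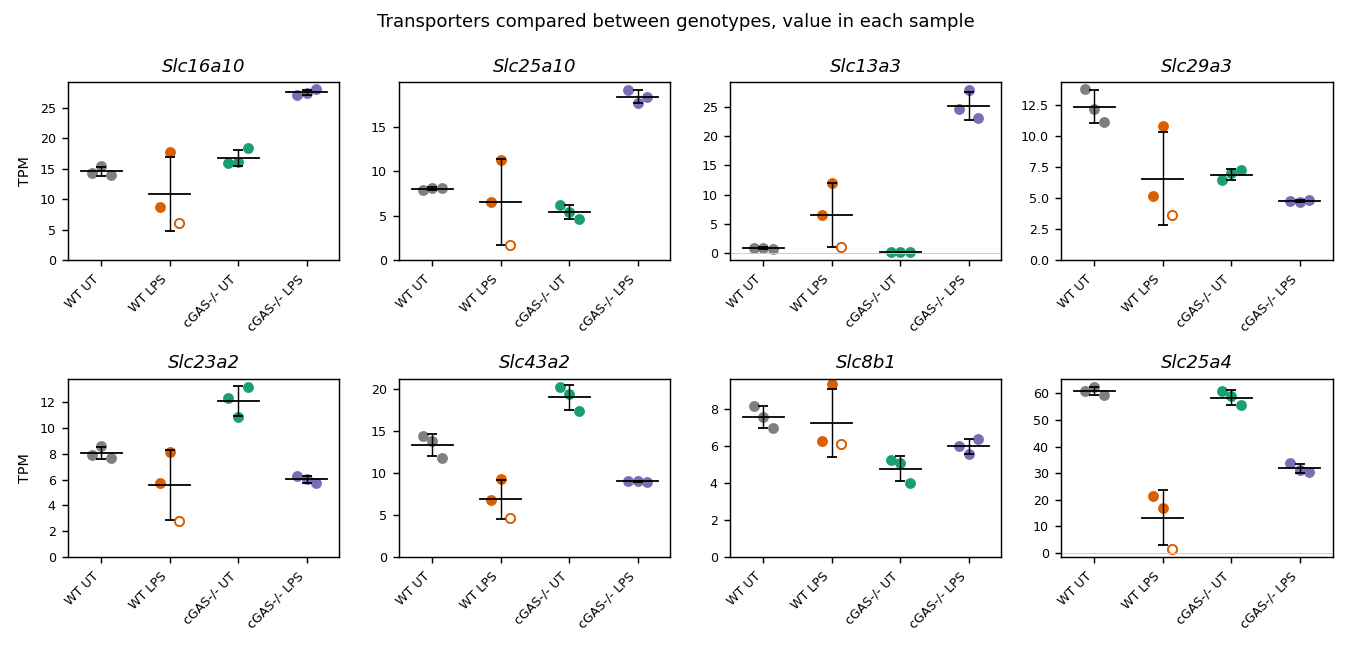
TPM in each sample of 8 members compared between genotypes, with points for samples, lines for the mean of 3 samples and bars for the SD. The open point is WT LPS replicate 3. Slc16a10, Slc25a10 and Slc13a3 are higher in all 3 cGAS-/- LPS samples than in the WT LPS samples, and Slc29a3 and Slc8b1 are lower in cGAS-/- UT than in WT UT cells.

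Without WT LPS replicate 3, 11 members were called between genotypes with LPS, of which 10 are named here, and 8.28% of all genes were. Slc13a3 (1.40), Slc2a6 (1.07), Slc25a10 (1.00), Slc6a12 (0.98), Slc25a4 (0.71) and Slc16a3 (0.69) were higher in cGAS-/- cells besides Slc16a10, with adjusted p from 0.00159 to 0.0164 by limma. Slc28a2 (-1.21), Slc66a1 (-0.68) and Slc35f6 (-0.56) were lower. With all 12 samples these had adjusted p of 0.0574 for Slc13a3, 0.0738 for Slc6a12, 0.0884 for Slc25a10 and 0.126 to 0.928 for the other members named. Without WT LPS replicate 2 instead, 43 members were called, all higher in cGAS-/- cells, where 27.9% of all genes were called, so the count turned on which WT LPS samples were used. Groups did not overlap in 25 of 92 members, against 17.7% of all genes. The copper transporter genes Slc31a1 and Slc31a2 did not pass (1.02 and 0.70, adjusted p = 0.277 and 0.421, limma), and without replicate 3 the differences were 0.31 and 0.00. Without WT LPS replicate 2 instead, Slc31a1 was called (1.51, adjusted p = 0.0282, limma).

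The difference of the LPS effect between genotypes was called in no member by limma with all 12 samples, against 0.9% of all genes, and 12 had an unadjusted p under 0.05. Calls beyond a log2 fold change of 2 were 0 as well, against 0.404% of all genes. Without WT LPS replicate 3, 6 members were called, against 4.56% of all genes. The LPS effect was greater in cGAS-/- cells by 2.03 in Slc13a3 (SE 0.28, adjusted p = 0.0034, limma), 1.71 in Slc2a6, 1.60 in Slc6a12, 1.5 in Slc25a10 and 0.77 in Slc25a4, and lower by 0.73 in Slc35f6. With weights per sample, 5 were called (2.46% of all genes), of which Slc13a3, Slc2a6, Slc6a12 and Slc25a10 were again among them. Without WT LPS replicate 2 instead, 21 were called, all with the higher value in cGAS-/- cells, where 12.6% of all genes were called. Slc13a3, Slc2a6 and Slc6a12 also started lower in cGAS-/- UT than in WT UT cells, with no overlap between the 3 samples of each, and all 3 are members through their LPS values.

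Genes of other names on the lists of related transporters and proteins are given beside the members. Of 18 ABC transporters tested, 10 fell in WT cells (median -1.02, and -0.81 with 10 lower without WT LPS replicate 3), and 1 rose and 6 fell in cGAS-/- cells (median -0.56). Without WT LPS replicate 3, 2 were higher and 9 lower in cGAS-/- cells, and with weights 13 were called there. Of 3 Slco organic anion transporters tested, solute carriers that the symbol rule does not take, 1 rose and 1 fell in WT and 2 rose and 1 fell in cGAS-/- cells. Of 13 partner and related proteins, such as the MCT chaperone Bsg and the mitochondrial pyruvate carrier subunits, 4 fell in WT cells (median -0.81) and none was called in cGAS-/- cells (median -0.32), where 3 had an unadjusted p under 0.05 by limma and 3 were called with TMM factors. The partner proteins called without WT LPS replicate 3 were 3 higher and 6 lower in WT cells (median -0.34) and 3 higher and 5 lower in cGAS-/- cells, and with weights 9 were called in cGAS-/- cells. All genes were called in 27.6% and 13.8% (WT and cGAS-/- cells) and in 34.7% and 30.8% without WT LPS replicate 3. In cGAS-/- cells they were called in 13.6% with TMM factors and in 48.3% with weights. Medians of all genes were -0.46 in WT and -0.20 in cGAS-/- cells.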

How the data were processed

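RNA of BMDMs in 4 groups of 3 samples was sequenced as strand-specific mRNA libraries. The extraction step of the labels names neutrophils and the labels give a HiSeq, whereas the study gives BMDMs and a NextSeq. The authors used STAR with GRCm39 for mapping and Kallisto for quantification (fastp is also listed), and edgeR and limma to compare groups. The deposited values are read as TPM, as a mean over the transcripts of a symbol, a unit inferred from the values. Read depth is unknown. No counting interval is given and precision rests on the 3 samples.

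Genes with at least 1 TPM in 3 or more of 12 samples (each sample rescaled to 1000000 for this filter alone) were kept, which left 11887 of 38739. Limma 3.58.1 (R 4.3.3) was fitted to log2(TPM + 1) over all 12 samples with a mean per group and a variance trend, and p-values were adjusted by Benjamini-Hochberg over all genes tested. A call is an adjusted p under 0.05, and the count beyond a log2 fold change of 2 is given beside it. On this scale the change of low genes is understated.

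Alternatives were pseudocounts of 0.1 and 5, no filter, a filter of 5 TPM, TMM factors (trimmed mean of M values), the 6 samples compared alone, a replicate block, weights per sample and each sample left out in turn. No count test was run. The members, substrate groups, lists and named genes were chosen with earlier results of these data known. Named are, in each comparison, the 6 called members that rose most and the 6 that fell most, among those without overlap of the groups, a list of 26 transporters of macrophage interest (22 are members), the 3 members with the highest level in each substrate group of 5 or more, and the genes at the edge of the level. Other members named were chosen after their values were seen, as was the group of 3 genes that are not transporters. Gene positions are from GENCODE vM39 (GRCm39, 91 of 92 members matched), promoters from RefSeq (GRCm38.p6, 79 of 92 members), and transcripts were compared by blastn 2.17.0. Of the 92 members, 2 enter the counts but are not reported by name here.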

Additional observations from a re-analysis of the deposited data

How the results depend on the processing

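Of the members called with LPS, 13 of 23 in cGAS-/- cells (8 higher, 5 lower) and 7 of 42 in WT cells (1 higher, 6 lower) kept their call under all 20 alternatives, and no named change turned its direction with a call. Some of those that kept it had a direction partly set by the choice by level. In UT cells the number of members called between genotypes was 0, and 1 with a pseudocount of 5 (2.66% of all genes). It was 13 with the 6 samples compared alone (10.4%), 15 with weights per sample (11.5%) and 0 to 6 with 1 sample left out (1.03% to 5.33%). With LPS it was 1 between genotypes, 0 with a pseudocount of 0.1 (1.37% of all genes) and 4 with a pseudocount of 5 (2.85%). It was 0 without the filter (0.725%), 2 with a filter of 5 TPM (3.07%) and 10 with TMM factors (4.11%). The 6 samples alone gave 0 (0.0421%), weights 4 (2.49%) and 1 sample left out 0 to 43 (0.648% to 27.9%). LPS against UT in WT cells gave 42, and 7 with the 6 samples alone (6.02% of all genes) and 19 to 66 with 1 sample left out (16.5% to 48.7%). In cGAS-/- cells it gave 23, and 57 with the 6 samples alone (44.6% of all genes), 60 with weights (48.3%) and 15 to 41 with 1 sample left out (8.58% to 30.8%), so the shares of all genes rose and fell with these counts. The difference of the LPS effect gave 0, and 5 with weights (2.46% of all genes) and 0 to 21 with 1 sample left out (0.353% to 12.6%). The cause of these shifts was not tested. The highest counts with 1 sample left out came without WT LPS replicate 2 (43, 66 and 21) or replicate 3 (6 and 41). The lowest WT counts, 19 to 23, came without a WT UT sample, and the lowest cGAS-/- counts, 15 and 16, without a cGAS-/- sample.

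Same-numbered samples did not deviate together (correlations from -0.0315 to 0.0383). With 3 samples per group this cannot show whether they were paired by culture or batch. With the replicate block the counts were 0, 0, 38, 22 and 0 in the order above (1.43%, 1.51%, 24.9%, 11.9% and 0.454% of all genes). The single call between genotypes with LPS was lost in that fit. A filter of 5 TPM tests 84 of 92 members. All counts rest on 3 samples per group of unknown depth.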
